A study of Mus musculus with 6 samples.

Results

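The cytochrome P450 family 2 genes (Cyp2) of mouse liver were compared between control animals and animals lacking Fam210a in hepatocytes. Members were the protein-coding genes of the count table whose symbol is Cyp2, a subfamily letter and a number, which gave 48 of 54532 genes in the table (22046 of them protein-coding). They fall into subfamilies of 15 (Cyp2c), 8 (Cyp2d), 8 (Cyp2j), 5 (Cyp2b) and 4 (Cyp2a) genes and 8 subfamilies of 1 gene each (Cyp2e, 2f, 2g, 2r, 2s, 2t, 2u and 2w). The study sequenced poly-A selected liver RNA at the age of 5 weeks in 6 libraries, 3 labelled Ctrl and 3 labelled Fam210aHKO, the hepatocyte knockout of a gene for a mitochondrial membrane protein. Allele, Cre driver, strain and sex of the groups are not named in the labels. Nor do the labels tie each library to an animal of its own, so p-values measure the spread between these libraries, some of it perhaps technical. Groups follow the titles, since the genotype field of Fam210aHKO replicates 2 and 3 names Fam211a and Fam212a.

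Family 2 is the P450 family with the most genes in mice. Its enzymes are heme proteins of the endoplasmic reticulum that take electrons from P450 oxidoreductase and insert oxygen into drugs, solvents, steroids, bile acids and fatty acids such as arachidonic acid. The genes stand in tandem arrays of close copies, and in mice several are expressed at different levels in male and female liver under the pattern of growth hormone release, while others are induced by foreign compounds through the nuclear receptor CAR.

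Library totals lay between 12.5 and 19.7 M counts (M is 1e6), and levels are given as CPM, counts per 1e6 scaled by TMM factors. Fam210a fell from 139 ± 21.6 to 34.9 ± 8.26 CPM (SD, n = 3 per group). All 6 libraries held RNA of the Y-linked gene Ddx3y (91.4 to 138 CPM) and at most 6 counts of Xist, so no library had the pattern of a female. Defining markers of hepatocytes were present in every library, with 0 of 10 higher and 6 lower and a summed level of 156706 to 242751 CPM in Ctrl and 88665 to 113160 CPM in Fam210aHKO. Markers of other cells moved the other way in part, with 5 of 12 macrophage, 2 of 5 cholangiocyte and 2 of 8 stellate cell and fibroblast genes higher and 0 lower in each, and 2 of 6 endothelial genes lower (with library totals 9, 4 and 6 higher and 0 endothelial genes lower; with the replicate number as a block 5, 3 and 4 higher and 3 endothelial genes lower). Their summed levels were 393 to 524 and 344 to 657 CPM for macrophages, 54.2 to 74.0 and 154 to 293 CPM for cholangiocytes, 381 to 433 and 489 to 731 CPM for stellate cells and fibroblasts, and 260.3 to 359.7 and 173 to 281 CPM for endothelial cells, in Ctrl and Fam210aHKO. Of all genes tested, 14% were called higher and 13.5% lower. These shares were 42.7% and 6.33% with library totals, and 17.8% and 18% with the block. No marker of these lists was at 0 in all libraries. The part of these shifts in the results below was not tested, and fewer hepatocytes and less RNA per hepatocyte cannot be told apart in tissue RNA.

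Most Cyp2 messages were lower in the knockout livers, while a few of the Cyp2a, Cyp2b and Cyp2c subfamilies were higher. Of the 34 members that passed the filter on low counts, 4 were higher (Cyp2a4, Cyp2a22, Cyp2b13 and Cyp2c55), 19 were lower and 11 were not called at an adjusted p under 0.05 (edgeR quasi-likelihood F test, Benjamini-Hochberg over all genes). That is 11.8% higher and 55.9% lower, against 14% and 13.5% of the 13706 genes tested. The median log2 fold change was -0.96 over the tested members and 0.02 over all genes. Changes of at least 2-fold made up 4 of the higher and 15 of the lower calls (7.68% and 6.93% of all genes). CPM of the groups did not overlap for 5 members that were higher and 19 that were lower in Fam210aHKO (22% and 20.7% of all genes). Summed over the family, levels were 23691, 18605 and 19864 CPM in the control libraries (replicates 1 to 3, here and below) and 9821, 8478 and 9499 CPM in the knockout libraries, with no overlap between the groups.

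When library totals replaced the TMM factors, the median of all genes moved by 0.45, and 6 members were higher and 15 lower, against 42.7% and 6.33% of all genes. Cyp2c37, Cyp2c68, Cyp2d22 and Cyp2d26 were then no longer called (adjusted p = 0.0875, 0.253, 0.0574 and 0.154), while each of the 4 higher and 19 lower members kept its sign.

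**Figure D1:**
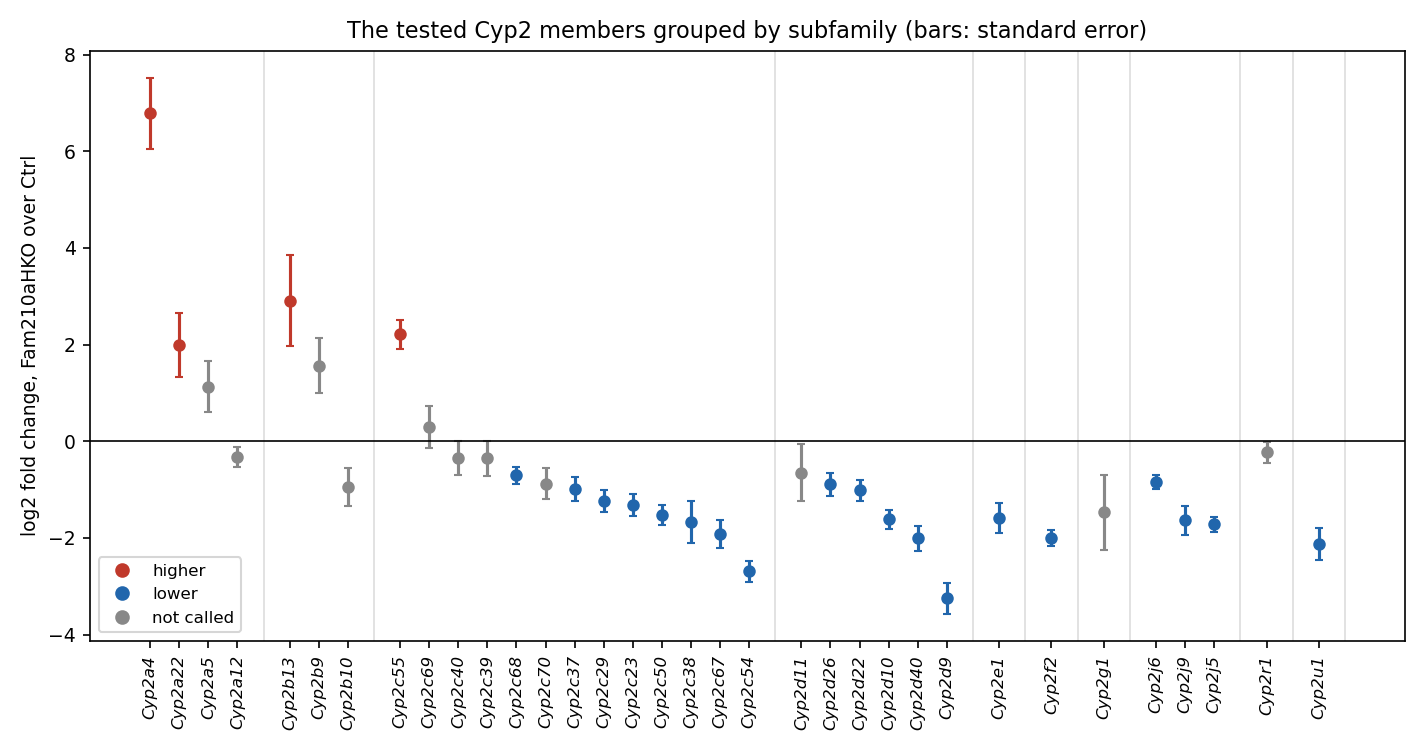
Log2 fold change of Fam210aHKO over Ctrl for the 34 tested Cyp2 members, grouped by subfamily, with the standard error as bars. Red points were called higher, blue points lower and grey points not called. The highest point is Cyp2a4 at 6.79, the highest of Cyp2b is Cyp2b13 at 2.90, and the Cyp2d, Cyp2e, Cyp2f, Cyp2j and Cyp2u columns lie below 0.

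Cyp2a4, a steroid hydroxylase known for a higher level in female than in male mouse liver, had the largest change of the tested members. It had 7.39, 17.1 and 1.28 CPM in Ctrl and 722, 1237 and 879 CPM in Fam210aHKO. Counts behind these levels were 85, 211 and 19 in the control libraries and at least 15103 in each knockout library, so the groups lay far apart. This was a 111-fold difference (log2 fold change 6.79, SE 0.736, adjusted p = 8.87e-05, edgeR). Cyp2a5, its close copy, is the coumarin hydroxylase of mouse liver. It had 668, 161 and 116 CPM in Ctrl and 579, 901 and 587 CPM in Fam210aHKO. Ctrl replicate 1 stood among the knockout libraries and the other control libraries well below them, and Cyp2a5 was not called (log2 fold change 1.13, SE 0.525, adjusted p = 0.136, edgeR). With the replicate number as a block it was called higher (1.59, adjusted p = 0.0138), and likewise with library totals (1.55, adjusted p = 0.0294) and without Ctrl replicate 1 (2.31, adjusted p = 0.000572).

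The pair is shown for what the sequence before the start of each gene shares. The stretches run from base 120 to base 11 before the RefSeq start (GRCm38.p6), 5′ to 3′ on the plus strand for both, at chr7:26307072-26307181 for Cyp2a4 and chr7:26835219-26835328 for Cyp2a5. Capitals mark matches to TTGCNNAA, a C/EBP-type motif, and to TATAAA.
Cyp2a4: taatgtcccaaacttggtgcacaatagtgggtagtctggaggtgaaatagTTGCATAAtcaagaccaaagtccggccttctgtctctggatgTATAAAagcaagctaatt
Cyp2a5: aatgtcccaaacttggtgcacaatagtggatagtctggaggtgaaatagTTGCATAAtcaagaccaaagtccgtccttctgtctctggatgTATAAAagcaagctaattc
Shifted by 1 base, 107 of 109 bases were identical, and both hold the C/EBP-type match and the TATA box. The messages themselves are close as well: 11.2% of the 100-base windows of the Cyp2a4 transcript and 14.4% of those of Cyp2a5 occur in another transcript. All 183 shared windows of Cyp2a4 occur in Cyp2a5, while 183 of the 275 shared windows of Cyp2a5 occur in Cyp2a4. Reads from such windows may have been counted for any gene that holds them, or dropped. The labels do not say how multiply mapped reads were handled.

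Cyp2a22 and Cyp2a12 form the other pair of the subfamily. Cyp2a22 had 95.7, 20.5 and 7.66 CPM in Ctrl and 204, 154 and 135 CPM in Fam210aHKO, with no overlap. It was called higher (log2 fold change 2, SE 0.659, adjusted p = 0.0441, edgeR), a call lost with DESeq2 (adjusted p = 0.12) and without any 1 of Ctrl replicates 2 and 3 and Fam210aHKO replicates 1, 2 and 3 (adjusted p between 0.052 and 0.137). Without Ctrl replicate 1 the log2 fold change was 3.53 (adjusted p = 0.000448). Cyp2a12, a steroid hydroxylase, had 878, 747 and 678 CPM in Ctrl and 797, 541 and 510.4 CPM in Fam210aHKO. Its groups overlapped and it was not called (log2 fold change -0.32, SE 0.208, adjusted p = 0.29), and with library totals the sign turned (0.14). The stretches before both starts are shown over the same bases, on the minus strand at chr7:26939397-26939506 for Cyp2a22 and on the plus strand at chr7:27028970-27029079 for Cyp2a12, with TATAAA in capitals.
Cyp2a22: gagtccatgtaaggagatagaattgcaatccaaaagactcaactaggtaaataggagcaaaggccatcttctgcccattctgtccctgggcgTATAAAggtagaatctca
Cyp2a12: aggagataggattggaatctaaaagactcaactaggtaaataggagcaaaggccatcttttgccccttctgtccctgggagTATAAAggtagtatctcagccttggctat
At a shift of 11 bases 92 of 99 bases were identical, and neither stretch holds TTGCNNAA.

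Summed over its 4 genes, Cyp2a had 1650, 945 and 803 CPM in Ctrl and 2302, 2833 and 2111 CPM in Fam210aHKO. The sum does not depend on how reads were split among the 4 genes, but reads dropped or counted for other genes are missing from it. It was higher (log2 fold change 1.09, SE 0.283, adjusted p = 0.0145, edgeR), and this call was lost without Ctrl replicate 2 (adjusted p = 0.0593) or Ctrl replicate 3 (0.0775). Within the subfamily, Cyp2a4 went from 0.807 ± 0.883% to 38.9 ± 6.58% of counts and Cyp2a12 from 72.2 ± 16.7% to 26.0 ± 7.91% (SD, n = 3 per group).

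**Figure D2:**
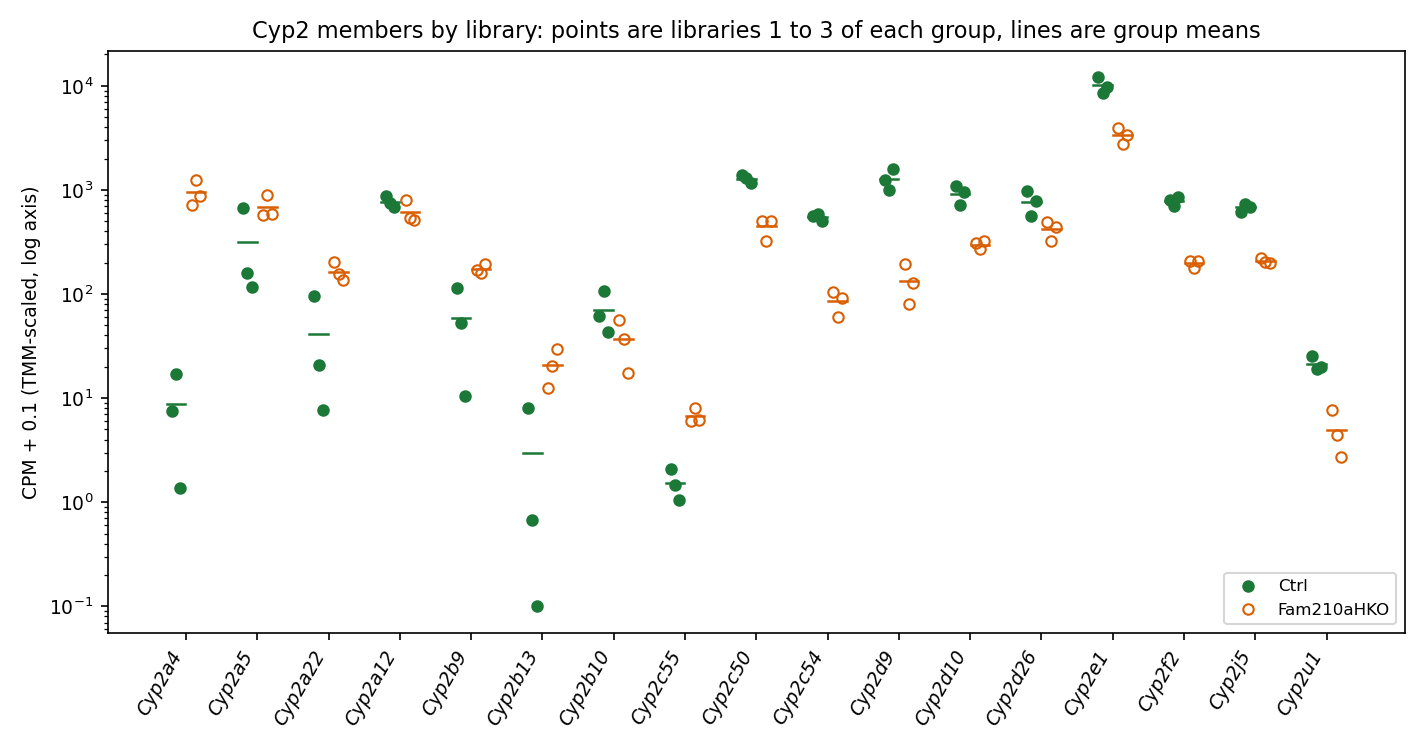
Level of 17 Cyp2 members in each library, as CPM + 0.1 on a log axis. Filled green points are Ctrl, open orange points Fam210aHKO, and short lines are group means. Cyp2a4 lies between 1.28 and 17.1 CPM in Ctrl and at 722 CPM or more in Fam210aHKO, and Ctrl replicate 1, the leftmost green point, is the highest control for Cyp2a5, Cyp2a22, Cyp2b9 and Cyp2b13.

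In the Cyp2b subfamily 1 of 3 tested genes, Cyp2b13, was higher, and Cyp2b9 and Cyp2b10 were not called. Cyp2b9 and Cyp2b13 are known as genes of female mouse liver, and Cyp2b10 is the classical target of CAR. Cyp2b13 had 8, 0.568 and 0 CPM in Ctrl and 12.3, 20.2 and 29.8 CPM in Fam210aHKO. The groups did not overlap, and it was called higher (log2 fold change 2.90, SE 0.942, adjusted p = 0.0409, edgeR). DESeq2 did not call it (adjusted p = 0.261), and the call was lost without Ctrl replicate 2 or 3 or Fam210aHKO replicate 2 or 3 (adjusted p between 0.0546 and 0.117). Without Ctrl replicate 1 the log2 fold change was 6.25 (adjusted p = 0.000562), from counts of 7 and 0 in the remaining controls. Cyp2b9 had 114, 52.4 and 10.4 CPM in Ctrl and 169.9, 159.7 and 194 CPM in Fam210aHKO. These groups did not overlap either, but the test missed the threshold (log2 fold change 1.57, SE 0.572, adjusted p = 0.0642, edgeR). It was called higher with the block (2.04, adjusted p = 0.00997), with library totals (2.01, adjusted p = 0.0126), without Ctrl replicate 1 (2.46, adjusted p = 0.0114) and without Ctrl replicate 3 (1.05, adjusted p = 0.0314).

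Cyp2b10 had 62.1, 107 and 42.8 CPM in Ctrl and 56.0, 36.7 and 17.5 CPM in Fam210aHKO. The groups overlapped and it was not called (log2 fold change -0.94, SE 0.391, adjusted p = 0.0985, edgeR), though it was called lower with the block (adjusted p = 0.00481) and without Fam210aHKO replicate 1 (-1.40, adjusted p = 0.0174). The stretches before the 3 starts, over the same bases and all on the plus strand, set the closely related Cyp2b9 and Cyp2b13 beside Cyp2b10. They lie at chr7:26173289-26173398 (Cyp2b9), chr7:26061375-26061484 (Cyp2b13) and chr7:25897538-25897647 (Cyp2b10), with TTGCNNAA in capitals.
Cyp2b9: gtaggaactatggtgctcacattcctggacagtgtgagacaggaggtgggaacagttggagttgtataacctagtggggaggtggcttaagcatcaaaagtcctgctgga
Cyp2b13: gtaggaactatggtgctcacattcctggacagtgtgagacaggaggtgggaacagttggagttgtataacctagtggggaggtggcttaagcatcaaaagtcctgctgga
Cyp2b10: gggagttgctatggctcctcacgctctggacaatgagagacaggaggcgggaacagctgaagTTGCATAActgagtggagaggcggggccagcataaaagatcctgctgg
Cyp2b9 and Cyp2b13 were identical over all 110 bases. Cyp2b10 matched them at 78 of 109 bases at a shift of 1 base, and its stretch holds the C/EBP-type match that the other two lack there. In their transcripts 1.18% of the Cyp2b9 windows and 9.29% of the Cyp2b13 windows were shared, the latter mostly with the annotated gene Gm45225, and none of those of Cyp2b10. As a sum, Cyp2b had 132 ± 69.8 and 232 ± 13.4 CPM and was not called (log2 fold change 0.81, SE 0.341, adjusted p = 0.103). It was called higher with the block (0.98, adjusted p = 0.0187) and with library totals (1.27, adjusted p = 0.00876).

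Ctrl replicate 1 had higher levels than the other controls of 4 of these genes together. Its CPM over the mean of Ctrl replicates 2 and 3 was 4.84 for Cyp2a5, 6.79 for Cyp2a22, 3.63 for Cyp2b9 and 28.2 for Cyp2b13. The last ratio rests on 7 and 0 counts in Ctrl replicates 2 and 3. For Cyp2a4 the ratio was 0.803, with Ctrl replicate 1 (7.39 CPM) between Ctrl replicates 2 (17.1 CPM) and 3 (1.28 CPM). Of the list of transcription factors described below, Dbp had 27.0, 0.649 and 0.538 CPM in Ctrl and 12.0, 2.06 and 1.36 CPM in Fam210aHKO. Tef had 103, 38.2 and 39.7 CPM in Ctrl and 68.8, 24.3 and 20.3 CPM in Fam210aHKO. Both were highest in replicate 1 of each group. Neither was called (adjusted p = 0.631 and 0.318, edgeR), though Tef was lower with the block (0.000968). The part of Ctrl replicate 1 in the spread was not tested beyond leaving it out, nor was a link to Dbp or Tef.

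All of the Cyp2a and Cyp2b genes lie in 1 array on chromosome 7 between 25802475 and 27158668 (mm10), a span of 1356 kb with 13 members. Of the 9 tested there 3 were higher, 1 was lower and 5 were not called. Beside these and the other counts by array or subfamily stand 14% of all genes called higher and 13.5% called lower. The share called lower in this array was near that of all genes. Cyp2f2, the 1 lower member of the array, stands next to Cyp2a12. Cyp2f2 metabolises naphthalene and is a gene of periportal hepatocytes; it had 804, 697 and 859 CPM in Ctrl and 205, 177 and 209.5 CPM in Fam210aHKO (log2 fold change -1.99, SE 0.167, adjusted p = 1.76e-05, edgeR), with no overlap. The 2 ends of the array, Cyp2s1 and Cyp2t4, had between 0 and 7 counts per library and were not tested. The other arrays held members of 1 subfamily each. On chromosome 19 there were 14 Cyp2c genes over 1180 kb (1 higher, 7 lower and 4 not called of 12 tested), on chromosome 15 there were 8 Cyp2d genes over 424 kb (0 higher, 5 lower and 1 not called of 6), and on chromosome 4 there were 8 Cyp2j genes over 637 kb (3 lower of 3 tested).

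**Figure D3:**
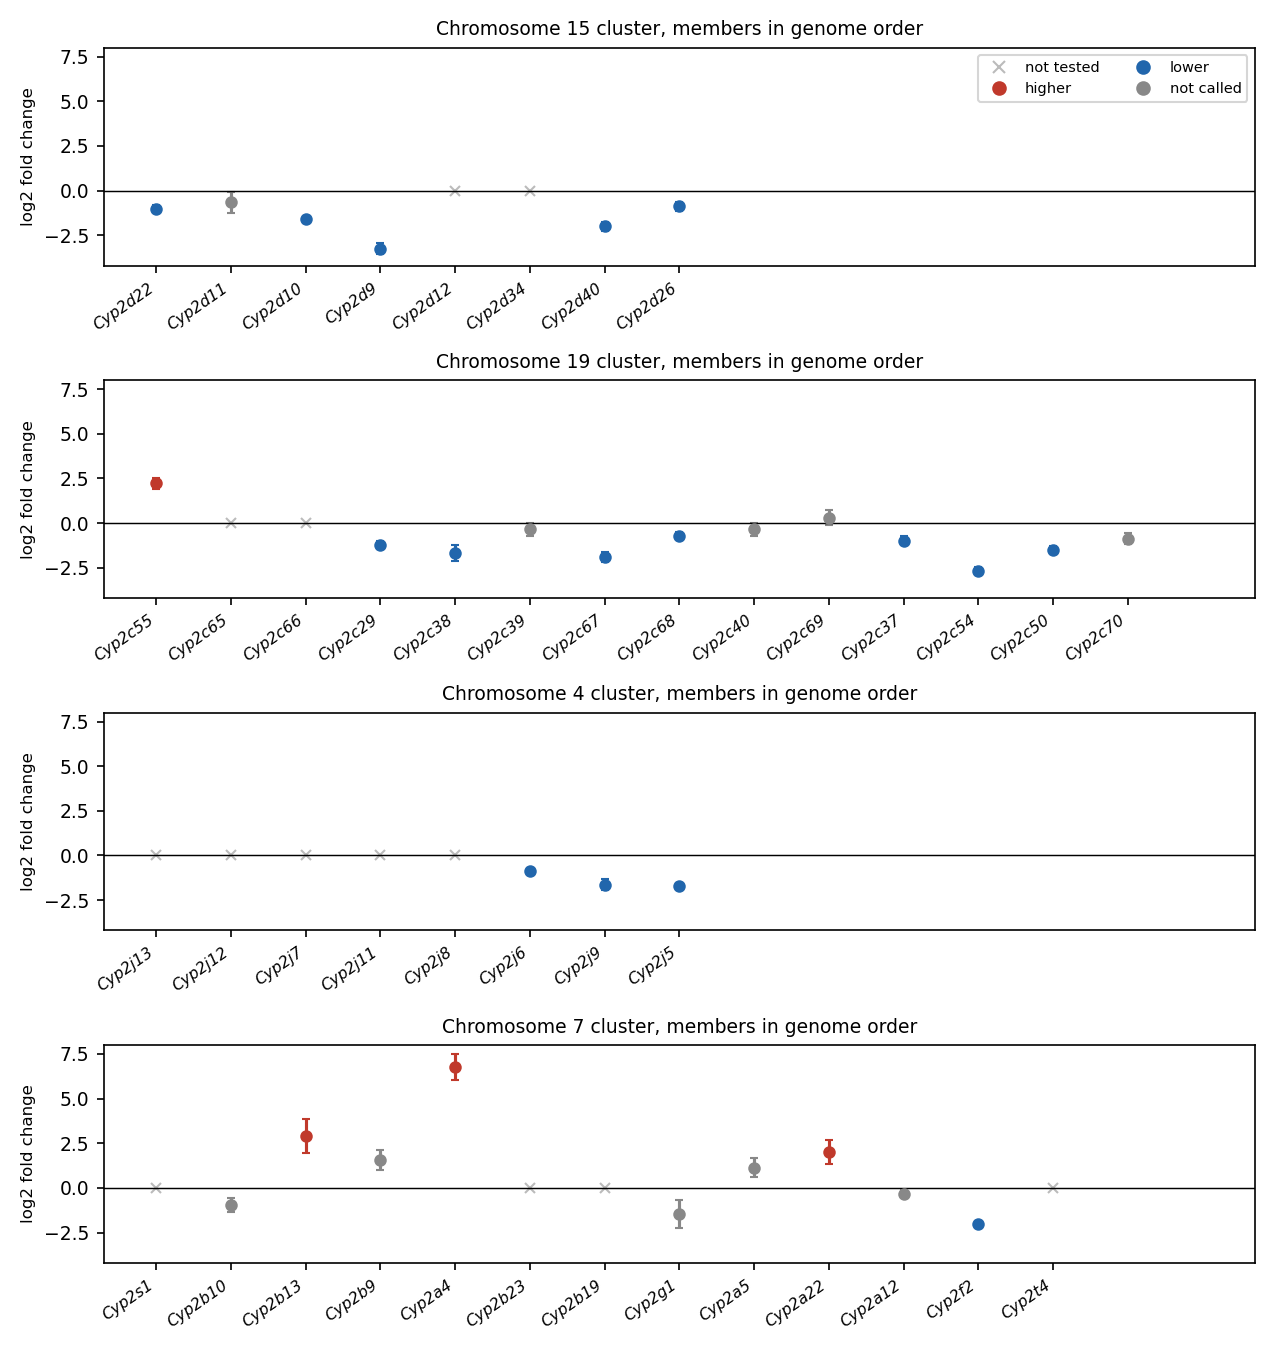
The 4 arrays of Cyp2 genes with their members in genome order along each x axis and the log2 fold change of Fam210aHKO over Ctrl on the y axis (bars: standard error). Crosses at 0 mark members that were not tested. Higher members are in the chromosome 7 array (3) and at one end of the chromosome 19 array (Cyp2c55), and the tested members of the chromosome 15 and chromosome 4 arrays lie below 0.

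The Cyp2c subfamily, which holds epoxygenases and hydroxylases of arachidonic acid and enzymes of bile acid and drug metabolism, was lower as a whole. Of its 13 tested genes 8 were lower, 1 was higher and 4 were not called, and the median log2 fold change was -0.98. Cyp2c50, the Cyp2c gene with the highest level per length, had 1378, 1295 and 1173 CPM in Ctrl and 506, 327 and 507 CPM in Fam210aHKO. Every knockout library lay below every control (log2 fold change -1.52, SE 0.212, adjusted p = 0.000421, edgeR). Its neighbour Cyp2c54, also an epoxygenase, had 567, 588 and 498 CPM in Ctrl and 104, 60.7 and 90.6 CPM in Fam210aHKO. That was the largest fall of the subfamily (log2 fold change -2.69, SE 0.211, adjusted p = 1.265e-05, edgeR), and its share of Cyp2c counts went from 12.1 ± 0.141% to 4.72 ± 1.21%. Cyp2c50 made up 28.2 ± 1.75% and 24.6 ± 4.36% of Cyp2c counts. The other 6 lower genes were Cyp2c23, Cyp2c29, Cyp2c37, Cyp2c38, Cyp2c67 and Cyp2c68, with log2 fold changes between -1.91 (Cyp2c67) and -0.70 (Cyp2c68). The call was lost for Cyp2c38 without Ctrl replicate 1 (adjusted p = 0.072) and for Cyp2c68 without Fam210aHKO replicate 2 (0.0565).

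Cyp2c55 was the 1 Cyp2c gene that rose. It had 2, 1.38 and 0.941 CPM in Ctrl and 5.93, 7.98 and 6.05 CPM in Fam210aHKO, the latter from 116 to 138 counts per library. The groups did not overlap, and the call held with DESeq2 and without each library (log2 fold change 2.22, SE 0.299, adjusted p = 0.000346, edgeR). Cyp2c70, which makes muricholic acids from bile acids in mice, had 225, 604 and 332 CPM in Ctrl and 151, 205 and 278 CPM in Fam210aHKO. The groups overlapped and it was not called (-0.87, SE 0.325, adjusted p = 0.0688), but it was lower with the block (-0.79, adjusted p = 0.0121), without Ctrl replicate 1 (adjusted p = 0.0234) and without Fam210aHKO replicate 3 (0.0382). Cyp2c39, Cyp2c40 and Cyp2c69 were not called, at log2 fold changes of -0.36, -0.35 and 0.30, and the first 2 turned sign with library totals (0.095 and 0.11). Values of Cyp2c40, Cyp2c69, Cyp2c67 and Cyp2c68 are uncertain one by one, as 44.1%, 36.3%, 23.7% and 19.8% of their 100-base windows occur in other transcripts. As a sum, Cyp2c had 4548 ± 407 CPM in Ctrl and 1832 ± 460 CPM in Fam210aHKO and was called lower (log2 fold change -1.31, SE 0.262, adjusted p = 0.00354, edgeR).

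The Cyp2d genes, which oxidise many basic drugs and some steroids, were lower too. Their sum was 3593, 2439.9 and 3566 CPM in Ctrl and 1114, 758 and 992 CPM in Fam210aHKO (log2 fold change -1.75, SE 0.252, adjusted p = 0.000496, edgeR), and whether this change differs from that of Cyp2c was not tested. Of 6 tested genes 5 fell and Cyp2d11, with 86 counts in all, was not called (-0.65, adjusted p = 0.451). Cyp2d9, a testosterone hydroxylase known for its male-specific expression in mouse liver, had 1241, 997 and 1584 CPM in Ctrl and 196, 79.4 and 128 CPM in Fam210aHKO. It had the largest fall of the tested members (log2 fold change -3.25, SE 0.322, adjusted p = 5.01e-05, edgeR). Cyp2d10, its neighbour, had 1082, 711 and 958 CPM in Ctrl and 306, 268 and 322 CPM in Fam210aHKO (-1.62, SE 0.195, adjusted p = 0.000174). Cyp2d26 had 976, 561 and 781 CPM in Ctrl and 491, 321 and 439 CPM in Fam210aHKO. Its groups did not overlap (-0.89, SE 0.232, adjusted p = 0.0154), but the call was lost without Ctrl replicate 1 (adjusted p = 0.0619) or Fam210aHKO replicate 2 (0.0662).

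The remaining lower genes were Cyp2d40, with 56.9, 34.3 and 56.6 CPM in Ctrl and 10.2, 9.42 and 16.9 CPM in Fam210aHKO (-2.01, SE 0.262, adjusted p = 0.000278, edgeR), and Cyp2d22 (-1.02, adjusted p = 0.00441), often taken as the mouse counterpart of human CYP2D6. Unequal falls changed the makeup of the subfamily. Cyp2d9 went from 39.9 ± 5.01% to 13.6 ± 3.62% of Cyp2d counts and Cyp2d26 from 24.0 ± 2.78% to 43.6 ± 1.04%, while Cyp2d10 stood at 28.7 ± 1.66% and 31.8 ± 3.99%. The stretches before the starts of Cyp2d9 and Cyp2d10 are shown because the 2 genes lie side by side and fell by different amounts. They cover the same bases as above, on the plus strand at chr15:82452257-82452366 for Cyp2d9 and on the minus strand at chr15:82407205-82407314 for Cyp2d10, and capitals mark TATAAA on the opposite strand.
Cyp2d9: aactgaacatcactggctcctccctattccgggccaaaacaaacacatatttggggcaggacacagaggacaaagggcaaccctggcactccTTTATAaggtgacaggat
Cyp2d10: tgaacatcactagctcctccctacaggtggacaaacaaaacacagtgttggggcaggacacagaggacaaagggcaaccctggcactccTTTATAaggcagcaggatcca
At a shift of 3 bases 92 of 107 bases were identical, and the reverse TATA match stands at a like distance from both starts. In the transcripts 9.86% of the Cyp2d9 windows and 14.8% of the Cyp2d10 windows were shared with other transcripts.

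Cyp2e1, which oxidises ethanol, acetone and paracetamol and is a gene of pericentral hepatocytes, was the most abundant member in both groups and fell. It had 12092, 8569 and 9661 CPM in Ctrl and 3963, 2778 and 3340.3 CPM in Fam210aHKO. The groups lay well apart (log2 fold change -1.59, SE 0.316, adjusted p = 0.00363, edgeR). The Cyp2j genes, epoxygenases of arachidonic acid, fell in all 3 tested members. Cyp2j5, the main one in liver, had 614, 737 and 691 CPM in Ctrl and 220.3, 201 and 199 CPM in Fam210aHKO (-1.72, SE 0.157, adjusted p = 3.01e-05). Cyp2j6 and Cyp2j9 had log2 fold changes of -0.84 and -1.64, and no 100-base window of any of the 3 was shared with another transcript. Cyp2u1, a fatty acid hydroxylase, had 25.1, 18.9 and 19.6 CPM in Ctrl and 7.61, 4.33 and 2.63 CPM in Fam210aHKO (-2.12, SE 0.324, adjusted p = 0.000745). Of its windows 10.4% occur in 4930534D22Rik, and 4.64% of those of Cyp2f2 in Gm15883. The labels do not say whether the counting used strand, so reads of overlapping antisense genes may be included.

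Cyp2r1 and Cyp2g1 were not called. Cyp2r1, the vitamin D hydroxylase of liver, had 10, 11.4 and 7.33 CPM in Ctrl and 8.13, 6.81 and 9.56 CPM in Fam210aHKO. The libraries of both groups were intermixed (-0.23, SE 0.221, adjusted p = 0.488, edgeR), and the sign turned with library totals (0.24). Cyp2g1, a gene of olfactory epithelium, had 15, 6 and 12 counts in Ctrl and 7, 10 and 0 counts in Fam210aHKO (-1.47, SE 0.776, adjusted p = 0.188). The other 14 members were not tested. Cyp2s1 (21 counts over the 6 libraries), Cyp2t4 (19), Cyp2d12 (13), Cyp2j8 (5), Cyp2b23 (2), Cyp2b19 (1) and Cyp2c65 (1) had counts below the filter, and Cyp2c66, Cyp2d34, Cyp2j7, Cyp2j11, Cyp2j12, Cyp2j13 and Cyp2w1 had 0 counts in every library, where the limit of 3 counts corresponds to between 0.132 and 0.261 CPM by library.

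Per kilobase of gene length, the order of the members changed between the groups. In Ctrl, Cyp2e1 stood at 4684 ± 836 CPM per kb, followed by Cyp2d10 (556 ± 115), Cyp2d9 (479 ± 111), Cyp2c50 (439 ± 35.4) and Cyp2d26 (431 ± 116; SD, n = 3 per group). The latter 4 lay within 1 SD of a neighbour, so their order is not fixed by these libraries, and Cyp2a4, at 4.95 ± 4.6, was number 26. In Fam210aHKO, Cyp2e1 was first again at 1557 ± 275 CPM per kb, and Cyp2a4 was number 2 at 544 ± 152. Cyp2a5 followed at 332 ± 88.6, then Cyp2d26 (233 ± 48.6) and Cyp2d10 (181 ± 16.9), while Cyp2d9 was number 15 at 50.5 ± 22.0. In both groups the order also rests on the lengths used. These were 2658 bases for Cyp2d9, 2918 for Cyp2c50 and 3457 for Cyp2a12. Their longest protein-coding transcripts have 1712, 1812 and 1681 bases, while Cyp2d10 had 1648 bases by either measure. Places of members within a group may therefore differ by transcript length, which was not tested.

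By counts, the family made up 1.78 ± 0.310% of each control library and 1.08 ± 0.0935% of each knockout library. The Cyp2a share of the family was 6.96%, 5.08% and 4.04% in Ctrl and 23.4%, 33.4% and 22.2% in Fam210aHKO, with no overlap. The Cyp2e1 share went from 48.6 ± 2.49% to 36.1 ± 3.88% and the Cyp2d share from 15.4 ± 2.43% to 10.2 ± 1.21%. Cyp2c stood at 22.2 ± 3.69% and 19.7 ± 4.28%, a difference within the spread between libraries. Over the 10 subfamily sums that were tested, 1 was higher (Cyp2a) and 6 were lower (Cyp2c, Cyp2d, Cyp2e, Cyp2f, Cyp2j and Cyp2u), against 14% and 13.5% of all rows of that fit.

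**Figure D4:**
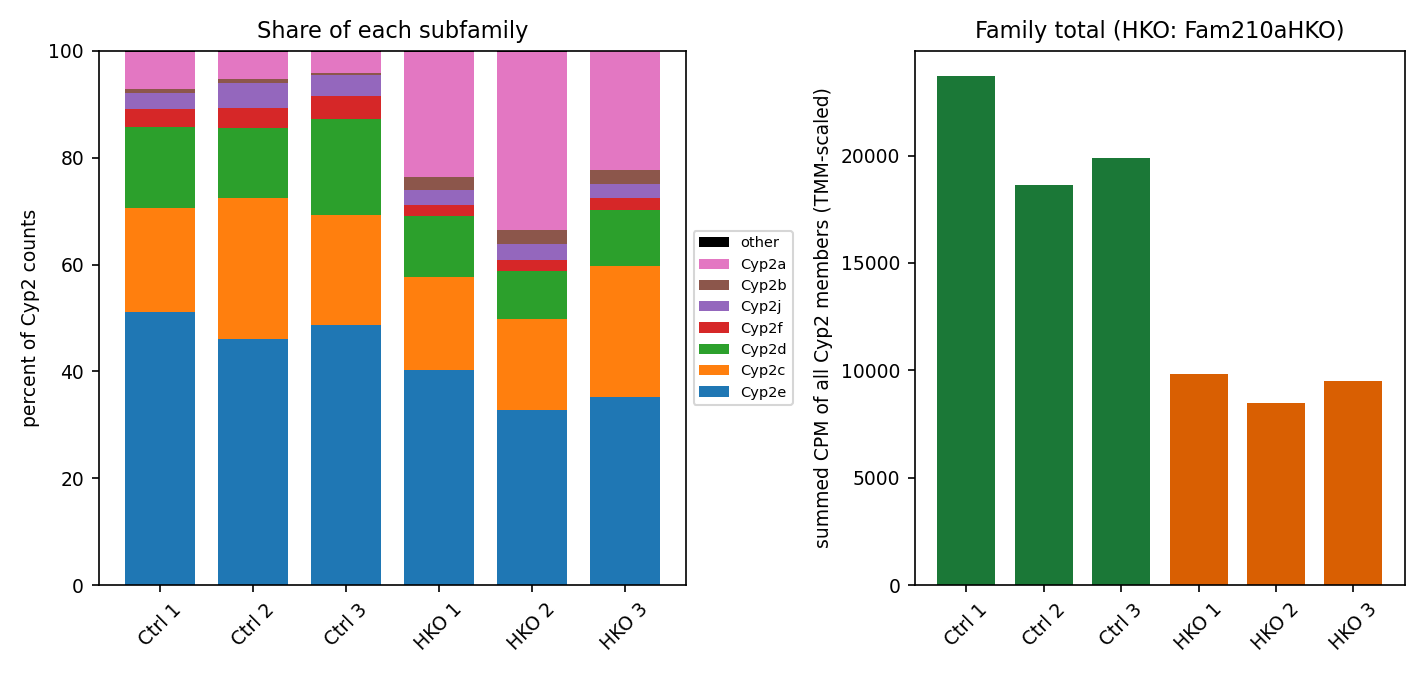
Left, the percent of all Cyp2 counts held by each subfamily in each library, stacked to 100. Right, the summed CPM of all Cyp2 members per library, with Ctrl in green and Fam210aHKO in orange. The Cyp2a part is 4.04 to 6.96% in the Ctrl libraries and 22.2 to 33.4% in the Fam210aHKO libraries, where the total is between 8478 and 9821 CPM.

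Short motifs were looked up on both strands in the 250 bases before the RefSeq start, for 42 promoters of 40 members and for all 32851 promoters of the table. TTGCNNAA occurred in 12 of the 42 member promoters (28.6%) and in 9.56% of all promoters. Besides those shown above, it was found at Cyp2b19, Cyp2b23, Cyp2c37, Cyp2c67, Cyp2c69, Cyp2j8 and Cyp2j9, and further from the start at Cyp2b9 and Cyp2b13. The 12 include higher, lower and not called members. TATAAA occurred in 18 (42.9% against 12.4%). CAAAGTCCA, a motif of HNF4 alpha, was in 6 member promoters (14.3% against 0.384% of all), those of Cyp2c40, Cyp2c65, Cyp2c67, Cyp2c68, Cyp2c69 and Cyp2c70, of which Cyp2c67 and Cyp2c68 were called lower and Cyp2c65 was not tested. TTCNNNGAA, a STAT5-type motif, was in 2 (4.76% against 7.02%), Cyp2j11 and Cyp2j12, which had no counts. TGATGNAA (C/EBP-ATF type), the HNF1 motif and TGACNNNGC (antioxidant response type) were in 0 member promoters and in 3.45%, 0.0609% and 10.2% of all. Cyp2a4 and Cyp2a5, Cyp2b9 and Cyp2b13, and Cyp2c68 and Cyp2c69 have close or identical stretches before their starts. Member promoters are thus not independent, and copied sequence counts more than once in their shares. The difference of these shares from those of all promoters was not tested. A match describes letters only, and the palindrome TTCNNNGAA reads alike on both strands.

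Genes that act on or with the Cyp2 enzymes were described from chosen lists, whose counts stand beside 14% of all genes higher and 13.5% lower (42.7% and 6.33% with library totals, 17.8% and 18% with the block). Among partners of microsomal P450 and genes of heme supply 1 of 17 was higher and 6 were lower, and the median was -0.35 (0.10, with 3 higher and 0 lower, by library totals; 2 higher and 9 lower with the block). Por, which passes electrons to every microsomal P450, was not called (411 ± 24.5 and 473 ± 85.9 CPM, adjusted p = 0.418, edgeR), though library totals called it higher (0.0104). Hmox1, which degrades heme, rose from 20.4 ± 3.69 to 43.0 ± 15.2 CPM (adjusted p = 0.00654), and Cpox, of heme synthesis, fell from 277 ± 42.0 to 158 ± 24.6 CPM (adjusted p = 0.00538), a call that library totals ended (0.136). Of 32 transcription factors and receptors known to act on Cyp2 genes 0 were higher and 13 lower, with a median of -0.45 (0.01 with library totals, where 2 were higher and 4 lower). The 4 that were lower under both scalings were Nr1i3, which encodes CAR (36.8 ± 8.05 to 11.9 ± 2.70 CPM, adjusted p = 0.000317), Ghr, the growth hormone receptor (408 ± 108 to 151 ± 24.9 CPM, adjusted p = 0.000681), Cebpa (325 ± 78.7 to 136 ± 14.2 CPM, adjusted p = 0.000759) and Hlf (59.4 ± 6.87 to 23.1 ± 1.94 CPM, adjusted p = 9.98e-05). Ctnnb1 and Nr1h4 were not called (adjusted p = 0.334 and 0.116, edgeR), though Ctnnb1 was called higher with library totals (0.00627) and Nr1h4 lower with the replicate block (0.00436).

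CAR and PXR targets outside family 2 were split, with 6 of 17 higher and 5 lower (6 and 3 with library totals, 6 and 8 with the block). Abcc4 rose from 3.28 ± 0.678 to 111 ± 20.8 CPM and Gstm3 from 6.80 ± 4.97 to 108 ± 17.1 CPM, while Ces2a fell from 278 ± 48.7 to 77.4 ± 14.5 CPM, and Cyp3a11 was not called (5378 ± 1957 and 3995 ± 223 CPM, adjusted p = 0.357, edgeR). In a chosen list of 15 genes of other P450 families 0 were higher and 9 lower (median -1.32; 0 and 7 with library totals); the list leaves out female-biased Cyp3a genes, of which Cyp3a16, Cyp3a41a, Cyp3a41b and Cyp3a44 rose. Cyp7b1 fell from 88.9 ± 43.7 to 7.06 ± 1.58 CPM, the lowest p of that list. It is also counted in the male-biased list below. Cyp1a2, Cyp3a11, Cyp3a25 and Cyp17a1 likewise stand in another companion list, so counts of the lists are not independent. Pericentral genes outside the family had 1 of 17 higher and 5 lower and periportal genes 2 of 15 higher and 7 lower (3 and 0, and 3 and 7, with library totals; 2 and 5, and 2 and 9, with the block). The share of periportal genes called higher was near that of all genes. Cyp2e1, a pericentral gene, and Cyp2f2, a periportal one, both fell.

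Sex-biased liver genes outside the family were mostly lower where male-biased and mostly higher where female-biased. Of the members described above as sex-biased, Cyp2d9 was lower, Cyp2a4 and Cyp2b13 were higher and Cyp2b9 was not called. The other members were not sorted by sex bias, so no share of sex-biased members is given. Of 16 tested male-biased genes 15 were lower and 0 higher (15 and 0 with library totals), with a median log2 fold change of -5.19, and of 14 tested female-biased genes 9 were higher and 0 lower (10 and 0), with a median of 2.24. Slco1a1 fell from 510 ± 166 to 4.49 ± 1.70 CPM (adjusted p = 1.62e-06, edgeR), and Cyp3a44 rose from 0.850 ± 0.275 to 93.9 ± 67.5 CPM and Sult2a1 from 1.26 ± 1.92 to 96.3 ± 31.4 CPM. Cyp17a1 and Abcd2, of the female-biased list, and Gstp1, of the male-biased list, were not called. Stat5b, through which growth hormone acts on these genes, had a log2 fold change of -0.58 (adjusted p = 0.0278, edgeR). With library totals it was -0.14 and not called (adjusted p = 0.56). Stat5a and Cux2, of the same list of transcription factors, were not called (0.0086 and 0.52, adjusted p = 0.979 and 0.628, edgeR). Bcl6, of that list too, was called lower (-1.20, adjusted p = 0.0497, edgeR), a call that library totals ended (0.14). The part of growth hormone signalling in these changes was not tested.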

How the data were processed

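The authors deposited raw counts, 1 whole number per Ensembl gene and library. The submitters' processing notes name mm10 and the tools FastQC, Trimmomatic, STAR and featureCounts, and also DESeq2, without versions; strand and multimapping settings are not stated there. Deposited FPKM values were not used. Samples were grouped by title, 3 per group.

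All 54532 genes entered edgeR 4.0.16 (R 4.3.3): filterByExpr with a minimum count of 10, TMM scaling (mean factors 0.855 in Ctrl and 1.17 in Fam210aHKO), group as the only factor, the quasi-likelihood F test of edgeR 4 (two-sided) and Benjamini-Hochberg adjustment over the 13706 genes tested. An adjusted p under 0.05 made a call. Subfamily sums replaced their members in a second fit. The SE is the absolute log2 fold change over the square root of F. Library totals were 12.5 to 19.7 M counts (M is 1e6), so 3 counts are 0.132 to 0.261 CPM; such limits cover counting error only. Shared sequence was counted as 100-base windows of the longest protein-coding transcript of each member found in any transcript of another gene, on either strand (GENCODE mouse release M21). Promoters came from RefSeq (GRCm38.p6), for 40 of 48 members.

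The members, companion lists, motifs and promoters shown were chosen with earlier results of these data known. Values by library are given for the most abundant member per length of each subfamily, called members that rose or changed at least 4-fold, the 5 most abundant members per length, and their close copies. From each list came up to 4 called genes of smallest p and 2 abundant ones not called. Stat5b, Stat5a, Cux2, Bcl6, Dbp and Tef were added after their values were seen, as were Cyp2b10 and Cyp2c70 by library.

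Same-numbered libraries of the 2 groups deviated together from their group means (correlations 0.155 to 0.245, and -0.141 to -0.0262 for other pairs). Deviations from a group mean cancel within the group, so positive values for same numbers pull the other pairs down. The 2 ranges are thus not independent, and whether the numbers pair the samples was not tested. The labels do not say what a number stands for. The fit with the number as a block is an alternative, given where it changes the call of a member, a subfamily sum or a named list gene. Counts over whole lists are given with the block for some lists only. Other alternatives were library totals, median-of-ratios scaling, no filter, CPM above 1 in 3 libraries, DESeq2 1.42.0, leaving out each library and, chosen after seeing the data, the legacy quasi-likelihood test. Simulated data for this comparison held 13500 genes, 200 of them changed. The test recovered 73% of those set to 1 log2 unit and 100% of those set to 2, with 7 false calls among 180. No scaling difference was simulated. Recovery at the spread of members such as Cyp2a22 (SE 0.659) and Cyp2b13 (SE 0.942) was not tested.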

Additional observations from a re-analysis of the deposited data

How the results depend on the processing

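Relative to the main counts of 1922 and 1852 genes, 4 and 19 members and 1 and 6 subfamily sums (higher and lower), library totals gave 5846 and 868 genes, 87.1% of calls higher against 50.9%. DESeq2 called 2 members higher and 19 lower (13.5% and 14.2% of all genes). With no filter 5 of 41 tested members were higher and 20 lower (7.96% and 6.95% of all genes), the added ones being Cyp2b9 and Cyp2c70. The sums called higher numbered 2 with library totals, with no filter and with the replicate block, which added Cyp2b each time. Without single libraries the ranges were 1339 to 1897 and 1334 to 1834 genes, 2 to 6 and 17 to 20 members and 0 to 1 and 6 to 6 sums. With the replicate block 6 members were higher and 21 lower (17.8% and 18% of all genes); it changed the calls of Cyp2a5, Cyp2b9, Cyp2b10 and Cyp2c70 and no other member's. Signs turned with library totals for Cyp2a12 (0.14), Cyp2c39 (0.095), Cyp2c40 (0.11) and Cyp2r1 (0.24, gene and sum), for Cyp2c39 without Ctrl replicate 1 (0.10, with the other end of the range at -0.73 without Ctrl replicate 3) and for Cyp2c69 without Fam210aHKO replicate 3 (-0.041, up to 0.71 without Fam210aHKO replicate 1), none of them called. Over the alternatives, 402 of the members' values kept direction and call, 19 lost the call, 14 gained it and 6 turned sign. The cause was not tested for any of these, except that leaving out a library leaves fewer samples. Copies that share windows, and counts near 0 in Ctrl for Cyp2b13 and Cyp2a4, limit single-gene values, and with 3 libraries per group 1 library can decide a call.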

Other observations

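Cyp2 pseudogenes, which are not among the protein-coding members, are given here as values and were chosen after they were seen. Of 21 such genes 6 were tested, and 11 had no counts in any library. Of the 6, 2 were higher, 3 lower and 1 not called (edgeR), beside 14% of all genes called higher and 13.5% called lower. Cyp2a21-ps, annotated on chromosome 7 from 26917381 to 26952346 (mm10, plus strand) across the locus of Cyp2a22 on the minus strand, rose from 0.0804 ± 0.0877 to 8.55 ± 5.70 CPM (SD, n = 3 per group) (log2 fold change 6.65, SE 0.708, adjusted p = 3.43e-05, edgeR). Without a stated strand setting, its reads and those of Cyp2a22 cannot be told apart. Cyp2c52-ps, beside Cyp2c55 on chromosome 19, had 0.414 ± 0.286 and 1.23 ± 0.157 CPM and rose as well (log2 fold change 1.55, adjusted p = 0.0321, edgeR). In the chromosome 15 array Cyp2d36-ps, Cyp2d37-ps and Cyp2d38-ps fell, with log2 fold changes of -2.90, -2.40 and -2.90 (by library totals -2.45, -1.94 and -2.44), as 5 of the 6 tested Cyp2d genes did, while Cyp2d41-ps was not called (-0.37, adjusted p = 0.469).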
